A study of Mus musculus with 2 samples.

Results

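Collagen genes were examined in an ATAC-seq data set of mouse common myeloid progenitors. They were taken as the GENCODE M21 protein-coding genes whose symbol is Col, a number, a and a number, which gave 44 of 21853 protein-coding genes. ATAC-seq uses a transposase that cuts and tags accessible DNA, and the deposited values are lists of peaks on mm10. In the conservative list of both libraries, cut by the authors on the irreproducible discovery rate (IDR), overlapping peaks were merged into 67395 regions. A collagen gene had a promoter region when a region came within 1 kb of any start of its protein-coding transcripts. A region whose summit lay farther than 1 kb from every such start was distal, and went to the gene with the nearest start within 100 kb. By these rules 136 regions belonged to collagen genes, 15 as promoter regions and 121 as distal regions.

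The cells, from male C57BL/6J mice 5 to 6 weeks old, made up a single group of 2 libraries of 50000 cells each, labelled biological replicates 1 and 2. The donor label is shared and no label speaks of separate animals, so a difference between the replicates may be technical. For replicate 1 the labels name 2 instruments, for replicate 2 none. There was no other cell type or treatment. The lists hold no read counts, so the depth of each library is unknown, and intervals on shares are exact (Clopper-Pearson) 95% binomial intervals that cover counting error only. The labelled cell type was checked against a list of myeloid progenitor markers. Of these, 9 of 10 had a promoter region (interval 55.5 to 99.7, which covers the 60.8% of all protein-coding genes). Among them were Kit, Cd34, Flt3, Mpo, Spi1, Cebpa and Runx1, and Gata2 had none within 1 kb but 4 distal regions. Some of these promoter regions were weak. Their signal percentiles among all regions ran from 7.88 at Runx1, 8.19 at Fcgr3 and 9.35 at Mpo up to 75.2 at Flt3. Mpo had none in the IDR-thresholded list of either replicate alone.

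Collagens are extracellular matrix proteins built of 3 chains wound into a triple helix. The fibrillar types form the tensile fibrils of bone, skin and tendon, type IV forms the sheet of basement membranes, and the others sit on fibrils, form beaded filaments or short-chain networks, or span the cell membrane. In bone marrow the main makers of collagen are known to be osteoblasts, stromal and endothelial cells, and blood progenitors meet the matrix mainly through receptors.

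The sequences below show the regions on which the results turn, as windows of 101 bases centred on the summit, plus strand, from the GRCm38.p6 RefSeq sequence, which is the mm10 build of the files. Capitals mark matches to the motifs searched, on either strand. The first 3 are the distal regions with the highest signal, and the first of them holds no match to any motif searched. At chr11:51565187-51565287, chr15:71917788-71917888 and chr1:24572763-24572863 they read as follows, with AP-1 matches in capitals.
Col23a1 intron 15: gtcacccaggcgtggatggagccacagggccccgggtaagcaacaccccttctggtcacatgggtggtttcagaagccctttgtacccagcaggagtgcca
Col22a1 intron 23: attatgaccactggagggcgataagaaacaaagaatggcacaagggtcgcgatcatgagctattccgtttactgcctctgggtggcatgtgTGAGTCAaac
Col19a1 intron 2: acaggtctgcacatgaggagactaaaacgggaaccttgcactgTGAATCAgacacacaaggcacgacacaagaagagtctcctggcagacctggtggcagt

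Next are 3 regions of fibrillar genes. The summit windows in intron 1 of Col1a1 (chr11:94937157-94937257) and intron 1 of Col3a1 (chr1:45314085-45314185) each hold a CTCF match, and that of Col3a1 also a RUNX match. The window just upstream of the Col27a1 start (chr4:63215269-63215369) holds an SP match.
Col1a1 intron 1: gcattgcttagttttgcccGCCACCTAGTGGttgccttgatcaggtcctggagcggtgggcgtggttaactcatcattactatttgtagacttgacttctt
Col3a1 intron 1: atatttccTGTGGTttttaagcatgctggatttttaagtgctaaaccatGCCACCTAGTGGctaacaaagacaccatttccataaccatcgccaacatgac
Col27a1 start: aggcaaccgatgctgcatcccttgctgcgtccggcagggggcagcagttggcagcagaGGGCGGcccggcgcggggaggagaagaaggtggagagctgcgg

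The last 3 are non-fibrillar. They are the region near the start of Col4a5 that also came within 1 kb of the Col4a6 start (chrX:141475302-141475402, SP in capitals), the region at an internal start of Col15a1 (chr4:47303438-47303538, PU.1 in capitals) and a region in intron 1 of Col4a1 (chr8:11276453-11276553, PU.1 and RUNX in capitals). The chrX window covers the most 5′ start of Col4a5 but not the start of Col4a6.
Col4a5 and Col4a6 start: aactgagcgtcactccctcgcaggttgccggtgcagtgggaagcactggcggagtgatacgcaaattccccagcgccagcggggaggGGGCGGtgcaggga
Col15a1 internal start: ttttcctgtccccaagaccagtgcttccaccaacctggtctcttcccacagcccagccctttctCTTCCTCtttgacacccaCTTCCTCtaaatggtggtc
Col4a1 intron 1: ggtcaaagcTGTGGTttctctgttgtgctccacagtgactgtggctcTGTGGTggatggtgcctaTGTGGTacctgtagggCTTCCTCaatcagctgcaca

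In the conservative list, collagen promoters were open less often than those of other genes. A promoter region was found at 12 of 44 collagen genes (27.3%, interval 15 to 42.8), against 60.9% of the 21809 other protein-coding genes and 60.8% of all of them. The upper bound of the collagen interval lay below the share of all genes, and it did so in the IDR-thresholded list of the series (13 of 44, interval 16.8 to 45.2, against 60.7%). In the less strict lists the gap fell within the interval. The replicated-peaks list gave 24 of 44 (54.5%, interval 38.8 to 69.6, against 68.3%) and the series pseudoreplicated list 26 of 44 (59.1%, interval 43.2 to 73.7, against 68.5%). In the conservative list the open genes were Col1a1, Col1a2 and Col27a1 among the fibrillar types, Col4a5 and Col4a6 of the basement membrane, Col14a1, Col16a1 and Col19a1 of the fibril-associated types, Col23a1 and Col25a1 of the transmembrane types, and the multiplexins Col15a1 and Col18a1. No protein-coding gene outside the collagens had a start within 1 kb of any of the 15 regions.

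**Figure D1:**
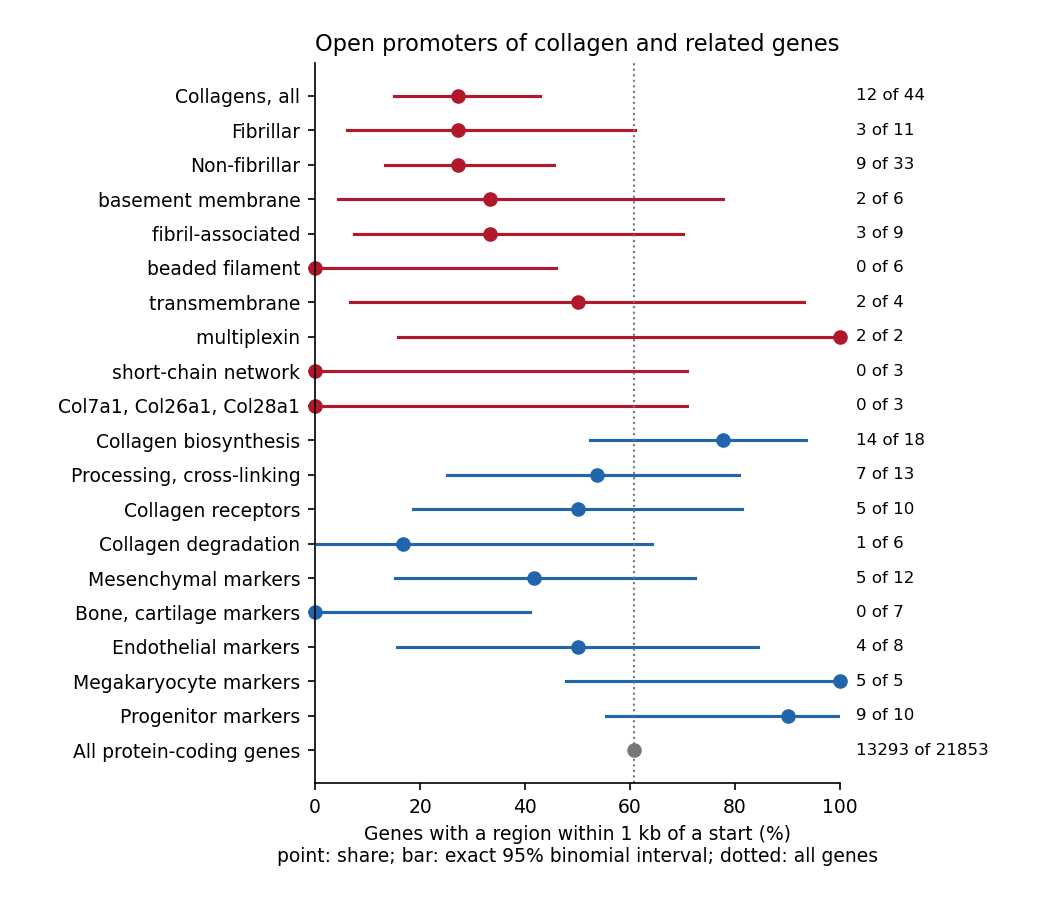
Share of genes with a region within 1 kb of a start (horizontal axis, percent) for collagen families (red), lists of genes that act on collagen and cell type markers (blue) and all protein-coding genes (grey), with exact 95% intervals and counts at the right. Fibrillar and non-fibrillar collagens both sit at 27.3%, left of the dotted line at 60.8%, and the biosynthesis genes sit to its right at 77.8% with an interval that crosses it.

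The conservative list held a promoter region at 3 of 11 fibrillar genes (27.3%, interval 6.02 to 61.0) and at 9 of 33 non-fibrillar genes (27.3%, interval 13.3 to 45.5), and the interval of the fibrillar genes reached past the share of all genes. In the series pseudoreplicated list it was 9 of 11 fibrillar genes (81.8%, interval 48.2 to 97.7) and 17 of 33 non-fibrillar genes (51.5%, interval 33.5 to 69.2), and in the replicated-peaks list 7 of 11 and 17 of 33. The intervals overlap in each of these lists, and the difference itself was not tested. Within the non-fibrillar types of the conservative list, 2 of 6 basement membrane, 3 of 9 fibril-associated, 2 of 4 transmembrane and 2 of 2 multiplexin genes were open. None of the 6 type VI genes, which encode the beaded filament, had a promoter region, which leaves an upper bound of 45.9%. None of the 3 short-chain network genes (Col8a1, Col8a2, Col10a1) had one, nor any of Col7a1, the anchoring fibril collagen, Col26a1 and Col28a1. These families are too small for their shares to be ordered.

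Among fibrillar genes, Col27a1 had the strongest promoter region. Signal is the authors' value for each peak, on a scale that is not stated, so its percentile among all regions of the list is given with it. The Col27a1 region peaked 116 bp upstream of the start with a signal of 9.35 (percentile 60.7), and a weaker region 707 bp downstream had 5.51 (percentile 13.9). Col1a1, which encodes the alpha 1 chain of type I collagen, had a region of 8.78 (percentile 54.7) that did not cover the start. It spanned chr11:94936862-94937636, that is 638 to 1412 bp downstream of the only annotated start, with its summit 983 bp downstream in intron 1. The Col1a2 region, at the gene for the partner chain of type I, was weak, with a signal of 4.99 (percentile 9.04) and a summit 228 bp upstream of the second of its 2 starts. With a window of 500 bp in place of 1 kb Col1a1 was no longer counted, which left 2 of 11 fibrillar genes. In that setting 12876 of all 21853 protein-coding genes had a promoter region.

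The fibrillar genes without a promoter region differed in how far their nearest region lay. It was 1.77 kb from a start at Col5a3, 2.49 kb at Col3a1, which encodes the type III collagen of soft tissue, and 5.00 kb at Col11a2. It was 11.3 kb at Col2a1, the main collagen of cartilage, 13.5 kb at Col5a1, 14.4 kb at Col24a1 and 71.0 kb at Col5a2. At Col11a1, a cartilage fibril gene, the nearest region was 289 kb away, the largest distance of the 44 genes.

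At basement membrane genes the 3 head-to-head pairs differed. Starts of Col4a5 and Col4a6 lie 1309 bp apart on opposite strands of chromosome X, and 3 regions fell around them. The region 33 bp upstream of the Col4a5 start had a signal of 8.56 (percentile 52.2) and counted for both genes. A region 213 bp downstream of the Col4a6 start had 5.12 (percentile 10.2), and one 768 bp downstream of the Col4a5 start had 6.11 (percentile 21.1). Col4a3 and Col4a4, whose starts lie 127 bp apart, had neither a promoter nor a distal region. Col4a1 and Col4a2 encode the chains found in nearly all basement membranes, and their closest starts lie 21 bp apart, so that their transcripts overlap at the 5′ ends. They had no promoter region either, but they held the most distal regions of all collagens.

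The fibril-associated genes had promoter regions of middle or low signal. Col19a1 had 8.40 (percentile 50.4) with the summit 25 bp upstream of a start, Col14a1 had 7.17 (percentile 34.9) at 70 bp downstream, and Col16a1 had 6.32 (percentile 24.1) with its summit on the start. The transmembrane genes Col25a1 and Col23a1 had 8.59 (percentile 52.5) and 6.80 (percentile 30.1), with summits 128 and 205 bp upstream. The Col25a1 region was 1457 bp wide and merged 4 peaks.

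The multiplexins Col15a1 and Col18a1, basement membrane zone proteins, had the strongest non-fibrillar promoter regions. Col18a1, whose product carries the endostatin fragment, had 9.20 (percentile 59.1) with the summit 25 bp downstream of its most 5′ start. Col15a1 had 9.65 (percentile 63.4), the highest of the 15, and a second region of 6.60 (percentile 27.6). Both Col15a1 regions lay upstream of the last of its 5 starts, by 234 and 956 bp, in intron 33 and about 95.3 and 94.6 kb downstream of the most 5′ start. No region lay within 1 kb of the most 5′ start of Col15a1. Counting only the most 5′ start of each gene, an alternative chosen after seeing the data, left 11 of 44 collagen genes, against 57.3% of all protein-coding genes.

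Collagen promoter regions were weaker than promoter regions in general, while distal collagen regions were not. The median signal percentile was 34.9 for the 15 collagen promoter regions and 58.9 for all 15556 promoter regions, and the median signals were 7.17 and 9.17. None of the 15 passed the percentile of 75, which 34.8% of all promoter regions did. For distal regions the median percentile was 44.6 at the 121 collagen regions and 46.3 at all 44913 regions given to a gene, and 19% and 20.8% passed the percentile of 75.

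**Figure D2:**
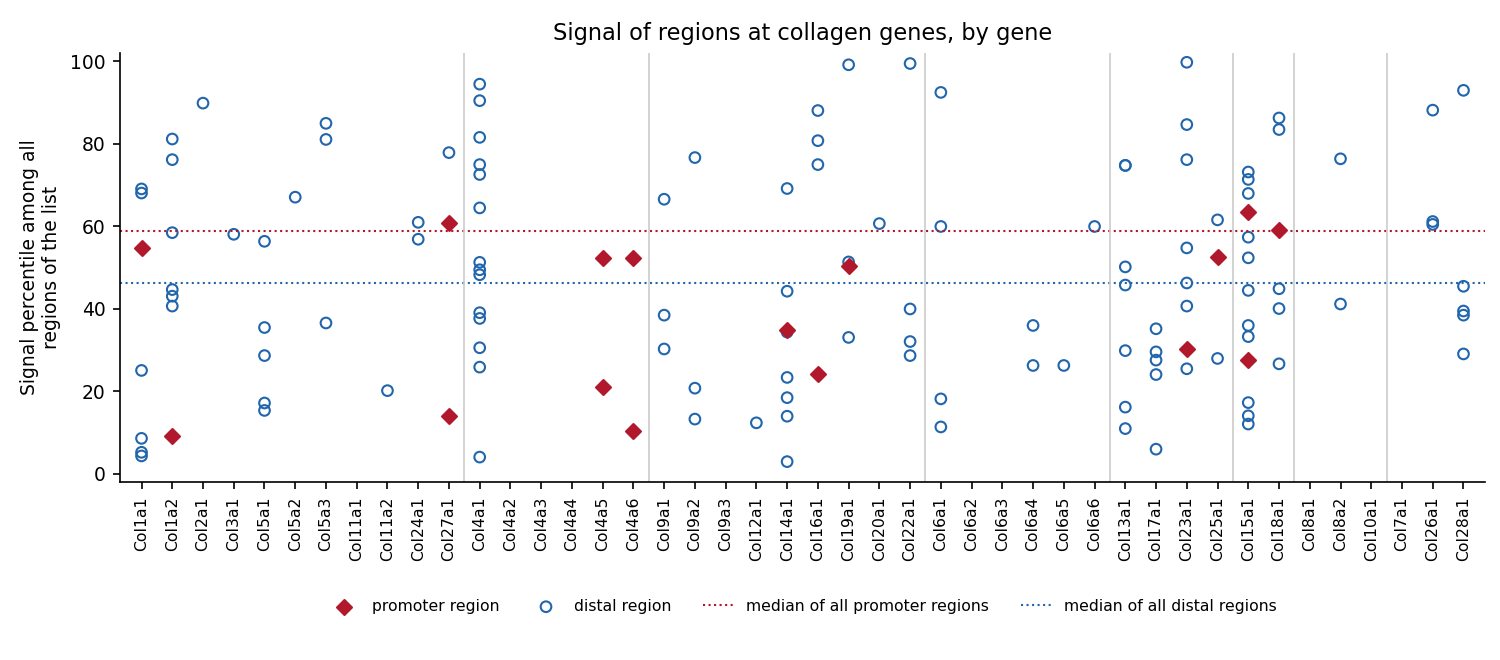
Signal percentile (vertical axis) of each promoter region (red diamonds) and distal region (blue circles) at the 44 collagen genes, grouped by family from fibrillar genes at the left. All promoter regions lie at or below the percentile of 63.4, while distal regions reach 99.7 at Col23a1.

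CpG content at the start was set beside the promoter count, a comparison chosen after seeing the data. The ratio of observed to expected CpG within 250 bp was taken at the start of each gene where it was highest. That start need not be the one with the region. The median ratio was 0.583 at open and 0.418 at closed collagen genes. At all open and closed protein-coding genes it was 0.814 and 0.246. Of the 14 collagen genes with a ratio of at least 0.6, 5 were open (35.7%, interval 12.8 to 64.9), against 87.6% of the 12235 protein-coding genes in that class. At ratios of 0.4 to 0.6 it was 5 of 13 collagens (38.5%), against 55.8% of genes, and under 0.4 it was 2 of 17 (11.8%), against 17.3%. The gap was widest at CpG-rich starts, where the closed collagens included Col4a1 (0.854), Col4a2 (0.851), Col13a1 (0.849), Col12a1 (0.848), Col5a1 (0.830) and Col8a2 (0.815). Open and closed here refer to the conservative list, and the classes were not counted in the others. All of these genes but Col13a1 had a promoter region in the replicated-peaks and series pseudoreplicated lists. Col5a1 also had one in the IDR-thresholded list of the series.

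**Figure D3:**
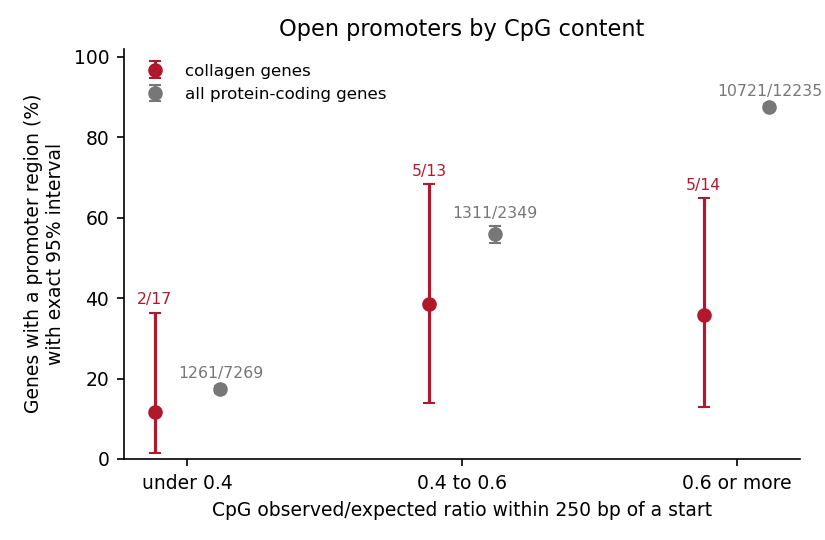
Share of genes with a promoter region in the conservative list (vertical axis, percent, with exact 95% interval) in 3 classes of CpG ratio. The ratio is that of the start where it was highest, for collagen genes (red) and all protein-coding genes (grey), with counts above. In the class of 0.6 or more the collagens sit at 35.7% and all genes at 87.6%.

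Distal regions were not scarce at collagen genes in number, but they were sparse over the space these genes occupy. At least 1 distal region was found at 32 of 44 collagen genes (72.7%, interval 57.2 to 85.0), against 60.3% of all protein-coding genes, and the mean number was 2.75 per collagen gene and 2.06 per gene overall. Collagen genes are long, and the stretch for which a collagen start was the nearest had a median of 131 kb, against 43.7 kb for all genes. Per Mb of such territory the collagens held 21.4 distal regions, against 29.2 for all genes. Fibrillar genes had 27 regions at 10 of 11 genes, or 18.7 per Mb, and non-fibrillar genes had 94 regions at 22 of 33 genes, or 22.3 per Mb. Neither kind of region was given to 10 collagen genes, namely Col10a1, Col11a1, Col4a2, Col4a3, Col4a4, Col6a2, Col6a3, Col7a1, Col8a1 and Col9a3, and 21.8% of all protein-coding genes had neither. Distal regions inside Col4a2 went by the rule to Col4a1, whose start lies 21 bp nearer to them. Of the collagen genes, 22 had a distal region without a promoter region, and 2, Col4a5 and Col4a6, had the reverse, against 17.3% and 17.8% of all protein-coding genes.

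Most distal regions lay inside the collagen genes themselves. Introns held 73 of the 121 (60.3%, against 48.0% of all distal regions given to a gene), 46 were intergenic (38.0%, against 45.4%) and 2 were exonic, in Col1a1 and Col11a2. The collagen gene itself contained 70 of them and another protein-coding gene 5, of which 4 were regions of Col4a1 inside Col4a2. Of the 121, 9 had a start of some other transcript type within 1 kb.

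Col4a1 held 14 distal regions, the most of any collagen gene, with signal percentiles between 3.99 and 94.4. Because its closest start lies 21 bp from that of Col4a2, the count belongs to the pair. None came near the shared start, and the nearest was 28.3 kb from the start of Col4a2. The strongest lay in intron 40, 97.4 kb downstream of the most 5′ start of Col4a1 (percentile 94.4), and the next in intron 2 (percentile 90.4). Col15a1 had 11 regions, of which 8 lay inside the gene. Col13a1, a transmembrane collagen with a CpG-rich closed promoter, had 7, with the nearest region edge 1.37 kb from a start.

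The position of distal regions differed from gene to gene. The 7 distal regions of Col14a1 all lay in the intergenic stretch upstream, between 1.26 and 39.0 kb from the start, with percentiles up to 69.1. The 7 of Col23a1 all lay in its introns, and 5 of these fell between 250 and 288 kb downstream of the most 5′ start. Col1a1 had 3 upstream regions, at 7.21, 65.7 and 66.2 kb, with percentiles of 69.0, 68.0 and 25. Its 3 regions in the gene body, at 3.25, 6.27 and 9.15 kb, were weak, with percentiles of 5.15, 4.27 and 8.53. Col1a2 had 4 upstream regions, at 20.4 to 96.9 kb, and 2 beyond its 3′ end, with percentiles between 40.6 and 81.1.

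**Figure D4:**
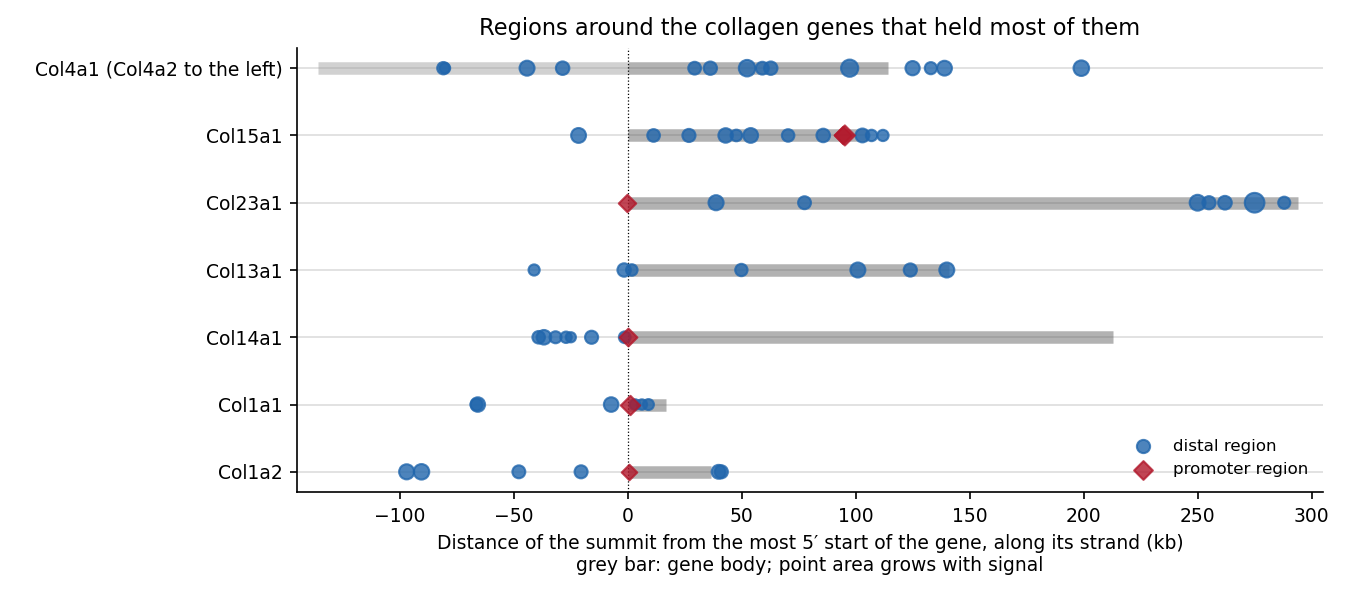
Distal (blue circles) and promoter (red diamonds) regions along 7 collagen genes, placed by distance of the summit from the most 5′ start in kb along the gene's strand. The grey bars are gene bodies, and point area grows with signal. Distal regions of Col14a1 lie upstream, those of Col23a1 cluster toward its 3′ end, and Col15a1 has promoter regions only near its internal start about 95.3 kb into the gene.

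The strongest distal regions were at non-fibrillar genes, all inside introns. The region in intron 15 of Col23a1 had a signal of 20.3 (percentile 99.7), that in intron 23 of Col22a1, a gene of tissue junctions, had 19.2 (percentile 99.4), and that in intron 2 of Col19a1 had 18.4 (percentile 99.1). They were present in the IDR-thresholded list of each replicate taken alone. The Col23a1 region had percentiles of 99.6 in replicate 1 and 99.1 in replicate 2, the Col22a1 region 99.6 and 91.8, and the Col19a1 region 98 and 97.2. The other 7 of the 10 strongest were in introns of Col4a1 (intron 40 and intron 2), Col28a1, Col2a1 and Col26a1, and upstream of Col6a1 and Col16a1. Of these the Col2a1 region, in intron 16 with a percentile of 89.8, was the strongest at a fibrillar gene. Each of the 10 was in the own list of both replicates.

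Motif letters were counted within 50 bp of the summit on both strands. The consensus letters were GAGGAAG for PU.1, CCGGAAG for ETS, TGTGGT for RUNX, AGATAA for GATA, TTGCNNAA for C/EBP, TGANTCA for AP-1, GGGCGG for SP and CCAAT for NF-Y. For CTCF the letters were CCA, any 2 bases, AG, any 2 bases and GGC, a motif added after seeing the data. PU.1 and ETS letters share the core GGAAG, and a match describes letters, not binding. PU.1, a master factor of myeloid cells, matched 9 of 121 collagen distal summits (7.44%, interval 3.46 to 13.7), against 14.2% of all 52606 distal summits. RUNX matched 24%, against 20.3% of all, and its interval of 16.7 to 32.6 covers the share of all. CTCF matched 13.2%, against 12.7%, and AP-1 7.44%, against 5.70%. GATA matched 5.79%, against 8.14%, C/EBP 4.13%, against 5.71%, SP 5.79%, against 5.61%, and NF-Y 9.09%, against 10.6%. The ETS letters were at none of the 121, an upper bound of 3.00%, and at 1.48% of all. At fibrillar distal summits CTCF matched 4 of 27 and PU.1 2 of 27, against 12 and 7 of 94 at non-fibrillar ones. At promoter summits SP, the GC box, matched 5 of 15 collagen regions (33.3%), against 35.8% of all promoter regions.

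The replicates were compared on their own IDR-thresholded lists, of 47535 regions in replicate 1 and 37620 in replicate 2. These are single libraries, so a difference between them has no replicate check and was not tested. Promoter regions were found at 8 of 44 collagen genes in replicate 1 and 6 in replicate 2, against 56.3% and 52% of all protein-coding genes. Both lists had Col1a1, Col27a1, Col4a5, Col25a1, Col15a1 and Col18a1. Genes were counted here, and at Col4a5 the regions differed. The region shared by Col4a5 and Col4a6 was in the own list of replicate 1 but not in that of replicate 2, which had another within 1 kb of a Col4a5 start. Col14a1 and Col23a1 were in replicate 1 alone, and 5.16% of all genes were likewise, while no collagen was in replicate 2 alone, where 0.842% of all genes were. Fibrillar genes numbered 2 in each replicate and non-fibrillar genes 6 in replicate 1 and 4 in replicate 2. When the 37620 strongest regions of each replicate were used, no collagen gene was in 1 replicate alone, against 2.64% of all genes in replicate 1 alone and 5.4% in replicate 2 alone. Col1a2, Col16a1, Col19a1 and Col4a6 were in the conservative list but in neither replicate's own list.

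The less strict pseudoreplicated lists, of 94841 and 82885 regions, showed more of a difference. A promoter region was found at 23 of 44 collagen genes in replicate 1 and 15 in replicate 2, against 66% and 63.9% of all genes. Replicate 1 alone had 9, namely Col2a1, Col5a1, Col5a3, Col11a2, Col24a1, Col4a6, Col8a2, Col9a2 and Col26a1, and 2.82% of all genes were in replicate 1 alone. Replicate 2 alone had 1, Col12a1, and 0.714% of all genes were in replicate 2 alone. Fibrillar genes made up 5 of the 9 in replicate 1 alone, so that 8 of 11 fibrillar genes were open in replicate 1 and 3 of 11 in replicate 2, against 15 and 12 of 33 non-fibrillar genes. These added regions were weak, with percentiles between 2.72 and 35.1 in the list of replicate 1 and a median of 14.9.

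The longer list of replicate 1 moved with this count. When the 82885 strongest pseudoreplicated regions of each replicate were used, a setting chosen after seeing the data, 17 collagens were open in replicate 1 and 15 in replicate 2. Replicate 1 alone then had 5 (Col2a1, Col5a1, Col24a1, Col4a6 and Col8a2), against 1.84% of all genes. Replicate 2 alone had 3 (Col12a1, Col4a1 and Col4a2), against 1.73%. Col4a1 and Col4a2 had the same strongest region, and both full pseudoreplicated lists held a promoter region at these genes. Fibrillar genes numbered 6 in replicate 1 and 3 in replicate 2, and non-fibrillar genes 11 and 12.

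**Figure D5:**
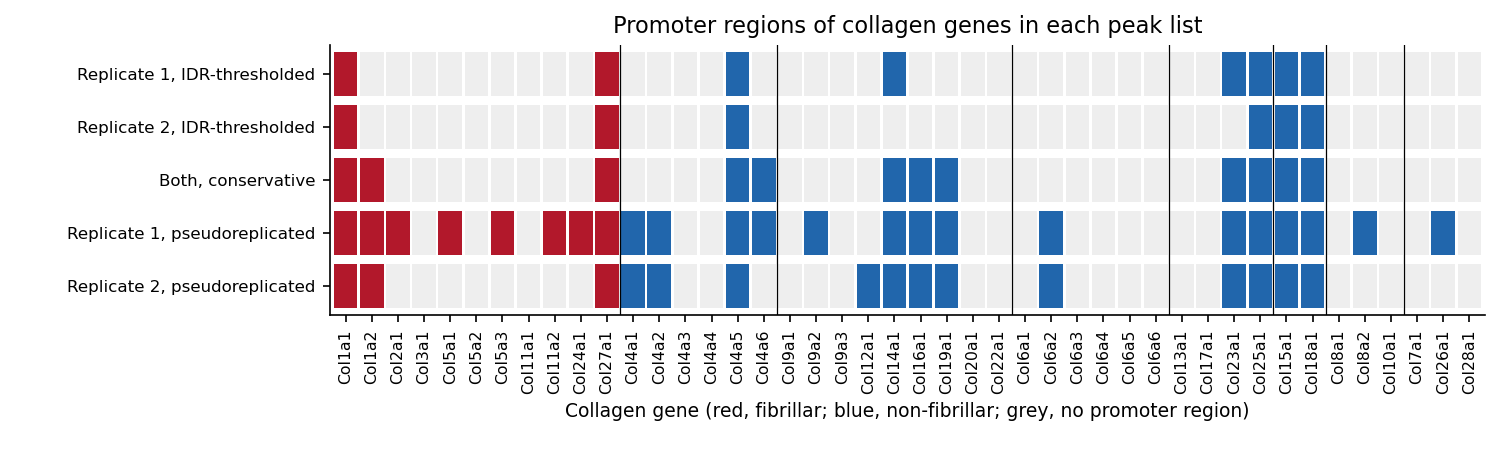
Presence of a promoter region at each collagen gene (columns, by family from fibrillar genes at the left) in 5 peak lists (rows). Filled cells mark a region within 1 kb of a start, in red for fibrillar and blue for non-fibrillar genes. The pseudoreplicated list of replicate 1 fills 8 fibrillar columns and that of replicate 2 fills 3.

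The 12 promoters of the conservative list were of like rank in both pseudoreplicated lists, apart from those of the Col4a5 and Col4a6 pair. The conservative list was cut on the IDR, which keeps peaks of like rank, so this likeness is partly set by the cut. Percentiles in replicate 1 and replicate 2 were 67.8 and 68.4 at Col1a1, 31.8 and 29.3 at Col1a2, and 74.7 and 64.1 at Col27a1. At the multiplexins they were 72.4 in replicate 1 and 84.3 in replicate 2 for Col15a1, and 73.1 and 63.7 for Col18a1. The region shared by Col4a5 and Col4a6 had 80 in replicate 1 and 39.7 in replicate 2. The region downstream of the Col4a6 start was in the pseudoreplicated list of replicate 1 alone, at 22.8.

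In the own lists, distal collagen regions recurred between the replicates somewhat less often than distal regions in general, with intervals that cover the general shares. Of 70 in the own list of replicate 1, 61.4% overlapped one of replicate 2 by 1 bp or more (interval 49.0 to 72.8), against 67.4% of all distal regions. Of 51 in replicate 2, 84.3% overlapped one of replicate 1 (interval 71.4 to 93), against 89.5%. For fibrillar genes it was 5 of 13 in replicate 1 (38.5%, interval 13.9 to 68.4) and 5 of 7 in replicate 2. For non-fibrillar genes it was 38 of 57 (66.7%, interval 52.9 to 78.6) and 38 of 44. The intervals of fibrillar and non-fibrillar genes overlap. In the pseudoreplicated lists of replicate 1 and replicate 2 the fibrillar shares were 75.7% and 93.3%, and the non-fibrillar ones 81% and 89.7%. All collagens had 79.9% and 90.4% there, against 78.2% and 91.6% of all distal regions. When 50% reciprocal overlap was asked of the own lists, all collagens had 55.7% and 76.5%, against 65.7% and 87%.

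Markers of other marrow cells that could carry open collagen genes were counted beside these values. The shares over all protein-coding genes were 60.8% in the conservative list, 56.3% and 52% in the own lists of replicate 1 and replicate 2, and 66% and 63.9% in their pseudoreplicated lists. Of 12 mesenchymal stromal markers 5 had a promoter region in the conservative list (41.7%, interval 15.2 to 72.3), namely Pdgfra, Pdgfrb, Postn, Fbn1 and Fap. The own list of replicate 1 had 3 and that of replicate 2 also 3. Dcn, Lum and Lepr, which mark fibroblasts and marrow stroma, had neither a promoter nor a distal region in the conservative list, and Prrx1, Twist1, Twist2 and Cxcl12 had no promoter region. None of 7 osteochondral markers had a promoter region in the conservative list or either own list, Sp7, Bglap, Sox9 and Acan included, and the upper bound of 41.0% lay below the share of all genes. In the less strict lists some of them did. The replicated-peaks list gave 4 of 7 (57.1%, interval 18.4 to 90.1, against 68.3% of all genes). The series pseudoreplicated list gave 3 of 7 (interval 9.9 to 81.6, against 68.5%), and Sox9 had one in the pseudoreplicated list of each replicate. Of 8 endothelial markers 4 did (Cdh5, Tie1, Esam and Sox17; interval 15.7 to 84.3), with 4 in each replicate, Tie1 in replicate 1 alone and Tek in replicate 2 alone. Megakaryocyte markers, of a lineage that arises from these progenitors, were open at 5 of 5 genes in the conservative list, with 3 in the own list of replicate 1 and 2 in that of replicate 2. Over the 27 stromal, osteochondral and endothelial markers together the counts were 9 in the conservative list (33.3%, interval 16.5 to 54.0) and 7 in the own list of each replicate, and 13 in the pseudoreplicated list of each. With the 82885 strongest pseudoreplicated regions of each they were 11 in replicate 1 and 13 in replicate 2. Their distal regions numbered 45 in the own list of replicate 1 and 27 in that of replicate 2. Those of the collagens numbered 70 and 51, and those of all protein-coding genes 29723 and 22421. Split by marker list they were 20 and 9 for mesenchymal stromal, 6 and 4 for osteochondral and 19 and 14 for endothelial markers. In the pseudoreplicated lists these were 50 and 32, 9 and 11, and 41 and 28, against 65049 and 55726 for all protein-coding genes. This difference between the replicates was not tested. Tie1 and Esam are known to be expressed in blood stem cells too, and in a bulk sample a few cells of another type and weak opening in every cell cannot be told apart. The part of other cells in the collagen regions was not tested beyond these counts.

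Genes that act on collagen were counted by role in the conservative list, in which 60.8% of all protein-coding genes had a promoter region. Of 18 biosynthesis genes 14 had a promoter region (77.8%, interval 52.4 to 93.6, which covers the share of all genes), including the prolyl and lysyl hydroxylase genes P4ha1, P4hb, Plod1, Plod2 and Plod3, the prolyl 3-hydroxylase complex genes P3h1, Crtap and Ppib, the glycosyltransferase gene Colgalt1, and Mia3, which serves the export of collagen from the endoplasmic reticulum. Many of these also act on other proteins. The 4 without one were P4ha2, P4ha3, Serpinh1, the gene of the collagen chaperone HSP47, and Fkbp10. Ppib and Mia3 had percentiles of 96.7 and 96.3, above every collagen promoter region. Of 13 processing and cross-linking genes 7 were open (53.8%, interval 25.1 to 80.8), among them the procollagen proteinase genes Adamts2, Adamts3 and Bmp1, while Lox, the founding lysyl oxidase, was not.

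Collagen receptor genes were open in 5 of 10 cases (interval 18.7 to 81.3, which covers the 60.8% of all genes). Itga1, Itga2 and Itgb1, which encode integrin chains that bind collagen, had percentiles of 56.4, 62.7 and 59.9, and Lair1, an inhibitory receptor of leukocytes, had 69.5. Mrc2, an endocytic collagen receptor, was weaker at 14.7. Gp6, the platelet collagen receptor, Ddr1, Ddr2, Itga10 and Itga11 had no promoter region. Of 6 degradation genes 1 was open (16.7%, interval 0.421 to 64.1, which also covers that share), Mmp8, the neutrophil collagenase, at 73.0.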

How the data were processed

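ATAC-seq peak lists of 2 libraries were used. Per the notes deposited beside the files, the lists were derived by the authors from filtered alignments on mm10. Which aligner and peak caller made them is not given in the sources used here. The deposited signal value of each peak, whose scale is not stated, served only to order and describe regions of the same list and to keep its stronger part. Overlapping peaks on chromosomes 1 to 19, X and Y were merged, keeping the strongest summit, and set against the 54361 protein-coding starts of GENCODE M21. The merging and assignment were tested on simulated data with a single start per gene and starts far apart. Genes with several starts and pairs with close starts were not covered by it. The collagen list, its families and the other lists were chosen with earlier results of these data known. No test over genes was made, since genes are not replicates. Named were genes of these lists, all promoter regions and the 10 strongest distal regions; other distal regions were named after their values were seen. Python 3.11.15, NumPy 2.4.6, pandas 2.3.3, SciPy 1.17.1 and pysam 0.24.0 were used. Alternatives were other lists, signal, windows, starts, assignment distance, overlap and either replicate alone.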

Additional observations from a re-analysis of the deposited data

How the results depend on the processing

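The number of open collagen promoters was higher in the less strict lists of both replicates. It was 24 in the replicated-peaks list (7 fibrillar, 17 non-fibrillar) and 26 in the series pseudoreplicated list (9 fibrillar, 17 non-fibrillar), in which distal collagen regions numbered 229 and 230. In the upper 50% of regions by signal there were 54 distal regions. With a window of 2500 bp 5 of 11 fibrillar genes were open, and 14154 of all 21853 protein-coding genes were. Leaving out either replicate meant using the own IDR-thresholded list of the other, as in the comparison of the replicates above. This gave 6 to 8 open collagens, 4 to 6 non-fibrillar ones and 2 fibrillar ones either way. It also gave 51 to 70 distal regions, and 6 to 7 fibrillar genes with a distal region. Collagen genes open in replicate 1 alone numbered 9 with pseudoreplicated lists, 0 with equal numbers of the strongest regions and 5 with equal numbers of pseudoreplicated regions, and in replicate 2 alone 1 and 3 with the pseudoreplicated settings. Distal regions of replicate 2 without a partner in replicate 1 numbered 15 of 156 with pseudoreplicated lists and 13 of 51 with equal numbers. The shares with a partner were 90.4% and 74.5%, near the 91.6% and 76.1% of all distal regions given to a gene. The cause of these moves was not tested. Starts of all transcripts and a limit of 50 kb moved no count by over 1.5 times. No paired analysis was possible because the series has 1 group. Depth per library is unknown, so an absent region shows only that none passed the authors' thresholds.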
